A study of Solanum lycopersicum with 18 samples.

Results

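Glb1 is the class 1 non-symbiotic hemoglobin gene of tomato (Solanum lycopersicum), and it was followed here through 18 leaf libraries. It was taken from the deposited gene table by its symbol, 1 gene of 23808, and carries the gene ID 100736435. The table places it on chromosome 7, from 2965697 to 2967964 on the minus strand, with 2 transcripts, of which the longest has 813 bases. Which genome build these positions refer to is not given in the sources used here. Glb1 was chosen for its pattern in these same libraries, so its levels and differences are given as a description, without a test.

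The leaves came from Micro-TOM-EX (EX) and Micro-TOM (MT), each sampled at 0 h, before NaCl was given, and at 2 h and 8 h of NaCl, with 3 libraries in each of the 6 groups. Micro-TOM is a miniature cultivar common in tomato research. The labels do not state how Micro-TOM-EX differs from it, nor the salt dose or the age of the plants. All plants grew in pots of soil in a greenhouse with 16 h of light. Whether separate plants gave the 3 libraries of each group is not stated, so p-values measure the spread between these samples, which may be technical. Untreated leaves at 2 h and 8 h were not analysed here, so in any comparison of hours the effects of salt and of the time of day cannot be told apart.

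Plant class 1 hemoglobins are small heme proteins that hold oxygen so tightly that they do not serve as oxygen carriers. Together with a reductant, they convert nitric oxide to nitrate, and they are known to be induced by low oxygen, nitrate and nitric oxide, in many plants mainly in roots. Class 2 hemoglobins, such as Glb2, have a lower oxygen affinity and respond to other signals, and the truncated hemoglobins form a separate branch of the family.

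Levels are in FPKM, fragments per kilobase of transcript corrected for the mapped total of the library, a scale that allows comparison between genes of different length. The spacing of the lowest FPKM values put the depth at 18.3 to 19.9 M (mega) fragments per library. For Glb1, 1 fragment was then worth 0.0758 to 0.0824 FPKM and 3 fragments, the limit that a count of 0 allows, 0.227 to 0.247 FPKM. The leaf label was checked with 29 Rubisco small subunit and chlorophyll a-b binding protein genes, whose summed level was 6793 to 46445 FPKM per library, with 1 of them under 1 FPKM in all 18. The 7 root genes looked up, such as Casparian strip membrane proteins, summed to 0.43 to 3.59 FPKM, with 4 under 1 FPKM in all 18 libraries. The 23 genes named for anther, tapetum or pollen were not low. They summed to 569.5 to 1318.3 FPKM, with 4 under 1 FPKM in all 18 libraries, and why was not tested. The 16 phloem genes summed to 110.68 to 283.68 FPKM and the 12 guard cell genes to 21.29 to 73.15 FPKM.

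The library labelled Micro-TOM 0 h replicate 2 stood apart for Glb1 and for other genes that separated the materials. Besides Glb1, among genes whose libraries differed more than 4-fold between the materials at 2 h and 8 h, and also at 0 h in the number 1 and 3 libraries, 5 were higher in Micro-TOM-EX and 9 higher in Micro-TOM. In the library labelled Micro-TOM 0 h replicate 2, all 5 of the first kind lay between the levels of the materials, at a median of 32.7% of the FPKM distance to Micro-TOM-EX. Of the second kind 6 of 9 lay between them, with a median of 41.8%. Glb1 itself lay 42.7% of the way. In Micro-TOM-EX 0 h replicate 2 the medians were 122% and 100%. Means of Micro-TOM at 0 h and calls against it are given with this library and, where they rest on it, also without it, written as without replicate 2. Why it differs was not tested.

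Glb1 was well expressed in all 9 Micro-TOM-EX libraries and close to the detection limit in 8 of the 9 Micro-TOM libraries. At 0 h it had 131.69, 191.91 and 156.91 FPKM in Micro-TOM-EX, against 0.24, 61.8 and 0.24 FPKM in Micro-TOM. At 2 h it had 71.97, 36.31 and 60.89 FPKM in Micro-TOM-EX, against 0.16, 0.56 and 0.09 FPKM in Micro-TOM. At 8 h it had 11.86, 12.3 and 31.4 FPKM in Micro-TOM-EX, against 0.16, 0.16 and 0.28 FPKM in Micro-TOM. The highest Micro-TOM value, from the library labelled replicate 2 of 0 h, was above the 8 h and some 2 h values of Micro-TOM-EX but below all its 0 h values. Within each hour the materials did not overlap.

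**Figure D1:**
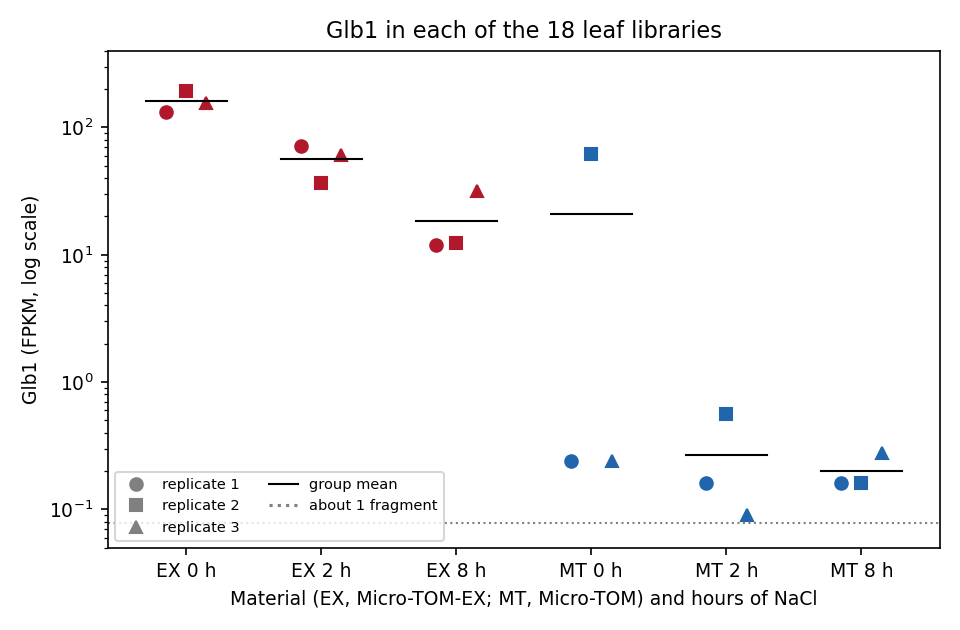
Glb1 level in FPKM (log axis) in each library, for Micro-TOM-EX (EX, red) and Micro-TOM (MT, blue) at 0, 2 and 8 h of NaCl, with symbols for replicate numbers, black lines for group means and a dotted line for the level that about 1 fragment gives. The EX libraries lie between 11.86 and 191.91 FPKM, 8 MT libraries between 0.09 and 0.56 FPKM, and 1 MT library of 0 h at 61.8 FPKM.

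The low Micro-TOM values rested on very few fragments. Estimated from FPKM, length and depth, Glb1 had 1650, 2373 and 2003 fragments in the Micro-TOM-EX libraries of 0 h, against 2.91, 791 and 2.98 in those of Micro-TOM. The 8 h libraries of Micro-TOM-EX still had 153, 162 and 403 fragments, and those of Micro-TOM 2.02, 2.03 and 3.56. In 8 Micro-TOM libraries the level was therefore at or near the limit that a count of 0 allows, and no order among them can be read at this depth. In bulk leaf RNA, fewer cells of a type and less RNA per cell cannot be told apart.

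Group means were 160 ± 30.2, 56.4 ± 18.3 and 18.5 ± 11.2 FPKM in Micro-TOM-EX at 0, 2 and 8 h (SD, n = 3 each). The Micro-TOM means were 20.8 ± 35.5, 0.27 ± 0.254 and 0.2 ± 0.0693 FPKM at the same hours (SD, n = 3 each), and 0.24 FPKM at 0 h without replicate 2 (n = 2, both 0.24). In order of level, the Micro-TOM-EX groups ran 0 h, 2 h and 8 h, and no neighbours among these 3 overlapped. The Micro-TOM groups of 2 h and 8 h stood below all of these and overlapped with each other and with 0 h of Micro-TOM. The Micro-TOM mean of 0 h lay above that of Micro-TOM-EX at 8 h with replicate 2 and far below it without. Among all 23808 genes, Glb1 ranked 777, 2525 and 6821 from the highest mean in Micro-TOM-EX at 0, 2 and 8 h, and 6062 (18542 without replicate 2), 18804 and 19291 in Micro-TOM.

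The comparison of the materials at each hour asks how far their leaves differ. At 0 h the mean was 7.72 times as high in Micro-TOM-EX as in Micro-TOM, and 667 times as high without the library labelled Micro-TOM 0 h replicate 2. Without that library the fragment counts were 6026 in Micro-TOM-EX and 6 in Micro-TOM, which gave a ratio per unit of depth of 654 with an exact 95% interval of 300.4 to 1783. At 2 h the ratio of means was 209, from 2222 fragments in Micro-TOM-EX and 10 in Micro-TOM (per unit of depth 210.0, interval 114 to 439). At 8 h it was 92.6, from 718 fragments in Micro-TOM-EX and 8 in Micro-TOM (per unit of depth 87.7, interval 44.3 to 204). These intervals pool the fragments of a group's libraries, so they cover counting error alone and leave out the spread between libraries. Fragments also carry no molecular identifiers. Whether the intervals overlap between hours is therefore no test of the hours.

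On the log2(FPKM + 1) scale used for all genes, which understates changes of low values, Micro-TOM-EX minus Micro-TOM was 5.12 at 0 h (SE 1.004), 5.46 at 2 h (SE 1.004) and 3.88 at 8 h (SE 1.004). Without the library labelled Micro-TOM 0 h replicate 2 the 0 h difference was 7.01 and the standard errors of Glb1 were 0.35 at 0 h and 0.31 at the other hours. Ranked by this difference among the 18402 genes tested, Glb1 was 1, 1 and 2 from the highest at 0, 2 and 8 h. Libraries of the materials also did not overlap for 17.8, 32.8 and 20.2% of those genes at 0, 2 and 8 h. The authors' deposited table lists log2 ratios of Micro-TOM-EX over Micro-TOM of 0.63, 6.83 and 4.77 at 0, 2 and 8 h. How these ratios were computed is not stated in the sources used here, so they are not the same measure. The authors' 0 h value is far below the difference of 5.12 found here from FPKM, and why was not tested.

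The comparison of hours within a material asks how leaf transcripts changed after NaCl was given. In Micro-TOM-EX the mean at 2 h was 35.2% of that at 0 h, and the mean at 8 h was 11.6% of that at 0 h and 32.8% of that at 2 h. The log2 differences were -1.53 for 2 h minus 0 h, -3.17 for 8 h minus 0 h and -1.64 for 8 h minus 2 h (SE 1.004 each, 0.31 without the library labelled Micro-TOM 0 h replicate 2). The libraries of these hours did not overlap, which also held for 76.4, 74.7 and 71.5% of the genes tested. The median of all genes was itself lower at 2 h, by a log2 difference of -0.37 in Micro-TOM-EX and -0.31 in Micro-TOM. After rescaling the libraries by median ratios the 2 h difference of Glb1 in Micro-TOM-EX was -1.10 and the 8 h difference -3.13. The authors' deposited table lists log2 ratios of -1.01, -3.03 and -1.93 for the same 3 comparisons in Micro-TOM-EX.

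In Micro-TOM the differences between hours were set by 1 library. The log2 difference was -1.87 for 2 h minus 0 h and -1.94 for 8 h minus 0 h with all libraries, and 0.02 and -0.05 without the library labelled Micro-TOM 0 h replicate 2. The difference of 8 h minus 2 h was -0.07. A decline from 0.24 FPKM could not have been detected at this depth. The authors' deposited table lists log2 ratios of -3.76, -4.53 and -0.73 for 2 h over 0 h, 8 h over 0 h and 8 h over 2 h in Micro-TOM. These are larger falls than the log2 differences found here, on a measure whose computation is not stated. The difference between the materials in the change from 0 h was 0.34 at 2 h and -1.23 at 8 h (SE 1.42), and -1.54 and -3.12 without that library (SE 0.47), so the sign at 2 h depended on it. The comparisons of 2 h and 8 h with 0 h share their 0 h libraries.

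The other 3 hemoglobin genes had close means in both materials at each hour. Glb2, the non-symbiotic hemoglobin 2, averaged 41.4 ± 3.76 FPKM in Micro-TOM-EX and 38.1 ± 7.23 FPKM in Micro-TOM at 0 h (SD, n = 3 each), with 34.2 FPKM in Micro-TOM without replicate 2. At 2 h it averaged 17 ± 5.35 FPKM in Micro-TOM-EX and 16.7 ± 2.95 FPKM in Micro-TOM, and at 8 h 74.4 ± 6.18 FPKM in Micro-TOM-EX and 71.1 ± 1.7 FPKM in Micro-TOM (SD, n = 3 each). None of Glb2 and the truncated hemoglobins LOC101255613 and LOC101255906 passed the test between materials at 0, 2 or 8 h (limma on log2(FPKM + 1), Benjamini-Hochberg adjusted p under 0.05), and over all genes 4.01, 13.7 and 1.67% passed it. At an unadjusted p under 0.05 the count was also 0 at each hour, as it was by the q values of the authors' deposited table. The log2 difference of Glb2 between the materials was 0.13 at 0 h, -0.0023 at 2 h and 0.06 at 8 h (SE 0.18 each).

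With the hours, Glb2 moved in another way than Glb1. In Micro-TOM-EX it fell at 2 h by 1.27 on the log2 scale (SE 0.18, limma adjusted p = 8.9e-06) and was higher at 8 h than at 0 h by 0.83 (adjusted p = 0.00064). In Micro-TOM the same differences were -1.14 (adjusted p = 2.9e-05) and 0.90 (adjusted p = 0.00033). LOC101255613 fell at 2 h in both materials, to 10 FPKM against 22.7 FPKM at 0 h in Micro-TOM-EX and to 10.6 FPKM against 19.7 FPKM (20.3 without replicate 2) in Micro-TOM. LOC101255906, the lowest of the family, fell at 2 h to 0.663 FPKM against 3.44 FPKM at 0 h in Micro-TOM-EX and to 0.49 FPKM against 3.37 FPKM (3.5 without replicate 2) in Micro-TOM. All 3 of these genes passed the test in each material at 2 h, when 75.9% of all genes passed it in Micro-TOM-EX and 74.9% in Micro-TOM. These calls in Micro-TOM, and those named for the gene lists that follow, also passed without replicate 2 of 0 h.

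Glb1 made up a share of the summed hemoglobin FPKM that differed by material and hour. In Micro-TOM-EX it was 70.1 ± 2.59% at 0 h, 66.6 ± 3.47% at 2 h and 15.7 ± 6.71% at 8 h (SD, n = 3 each). In Micro-TOM it was 16.2 ± 27.4% at 0 h, 0.987 ± 0.945% at 2 h and 0.218 ± 0.08% at 8 h (SD, n = 3 each), and without replicate 2 the 0 h share was 0.415% (n = 2). The share in the library labelled Micro-TOM 0 h replicate 2 was 47.8%, between those of the other 0 h libraries of Micro-TOM and all 3 of Micro-TOM-EX.

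**Figure D2:**
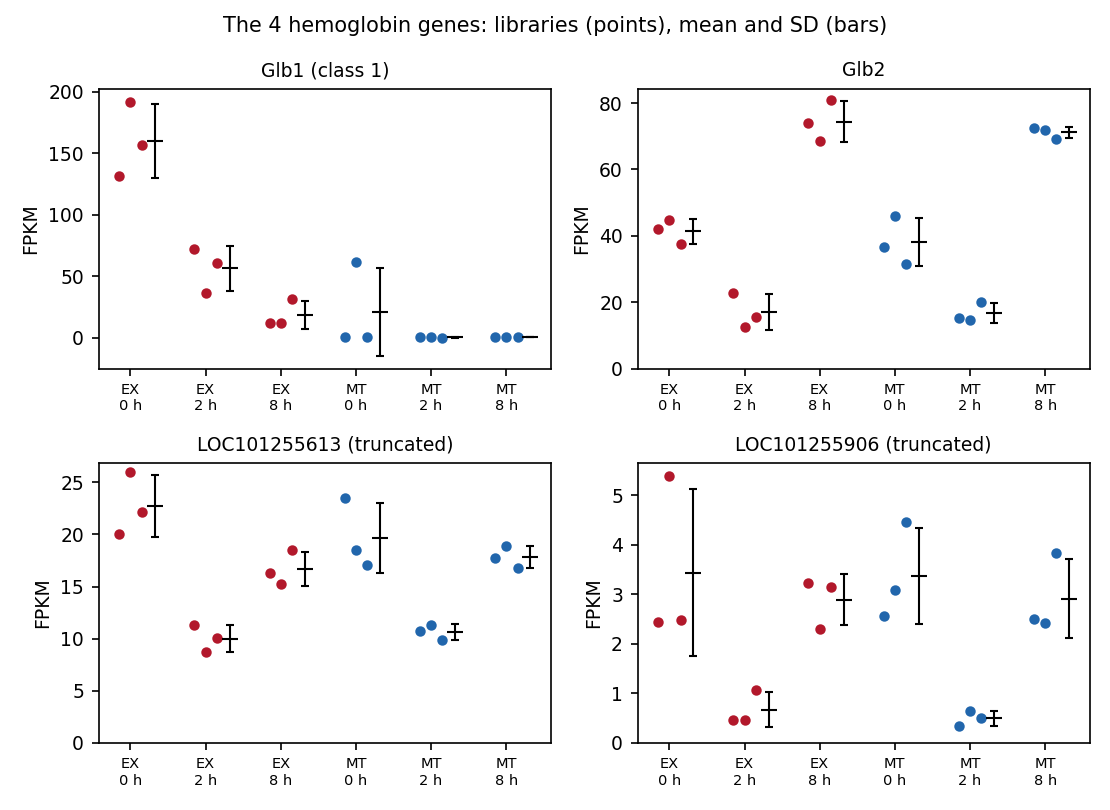
Levels in FPKM (linear axes) of Glb1, Glb2 and the truncated hemoglobins LOC101255613 and LOC101255906 in the EX (red) and MT (blue) groups at 0, 2 and 8 h, with points for libraries and bars for mean and SD (n = 3). Glb1 differs between the materials at every hour, while the other genes follow the hours in a like way in both, with Glb2 means at 8 h of 74.4 FPKM in EX and 71.1 FPKM in MT.

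The genes that surround the known functions of class 1 hemoglobins were grouped by their descriptions in the table. Of 22 tested genes of nitrate reduction and nitric oxide, 5 rose and 14 fell at 2 h in Micro-TOM-EX. At 8 h 9 rose and 11 fell there. In Micro-TOM 7 rose (5 without replicate 2) and 13 fell at 2 h, and 9 rose and 11 fell at 8 h. The members that passed the test in Micro-TOM-EX were 86.4 and 90.9% at 2 h and 8 h, against 75.9 and 71.3% of all genes. In Micro-TOM they were 90.9% at both hours, against 74.9 and 70.6% of all genes. The list was matched by words and holds some genes by name alone, such as folylpolyglutamate synthases. Nitrate reductase NR, which makes nitrite from nitrate, averaged 340 FPKM at 0 h, 148 at 2 h and 32.3 at 8 h in Micro-TOM-EX, and 246 (275 without replicate 2), 112 and 33.9 FPKM in Micro-TOM. At 8 h it fell by 3.46 in Micro-TOM-EX (SE 0.35, limma adjusted p = 2.8e-07) and by 2.84 in Micro-TOM (adjusted p = 2.5e-06), both on the log2 scale. GS2, a glutamine synthetase, fell at 8 h to 111 FPKM against 964 FPKM at 0 h in Micro-TOM-EX and to 159 FPKM against 903 FPKM (862 without replicate 2) in Micro-TOM, as did the ferredoxin-dependent glutamate synthase LOC101246028. The glutamine synthetase GS1 rose at 8 h in both materials, to 147 FPKM against 61 FPKM at 0 h in Micro-TOM-EX. NR and Glb1 were both lower at 8 h than at 0 h in Micro-TOM-EX, where 35.8% of all genes passed as lower. NR was well expressed at 0 h in both materials, and Glb1 was near the detection limit in 8 of 9 Micro-TOM libraries. A link between these genes was not tested.

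Of 23 tested low-oxygen response genes, 10 rose and 9 fell at 2 h in Micro-TOM-EX, and 12 rose and 6 fell at 8 h. In Micro-TOM 12 rose and 9 fell (7 without replicate 2) at 2 h, and 13 rose and 4 fell at 8 h. This list too was matched by words and holds some genes by name alone, such as a probable cinnamyl alcohol dehydrogenase. The members that passed were 82.6 and 78.3% at 2 h and 8 h in Micro-TOM-EX, against 75.9 and 71.3% of all genes, and 91.3 and 73.9% in Micro-TOM, against 74.9 and 70.6% of all genes. The sucrose synthase sus3, an enzyme of sucrose breakdown, rose at 2 h to 212 FPKM against 14.1 FPKM at 0 h in Micro-TOM-EX and to 206 FPKM against 9.05 FPKM (9.34 without replicate 2) in Micro-TOM. The 0 h mean of Micro-TOM-EX for sus3 was raised by its replicate 2, and was 8.6 FPKM without it. The alcohol dehydrogenase 1B LOC101265925 fell at 2 h to 4.3 FPKM against 35.1 FPKM at 0 h in Micro-TOM-EX, and at 8 h it rose to 97.4 FPKM. The alanine aminotransferase LOC101246035 rose at 2 h and 8 h in both materials, to 108 FPKM at 8 h against 16.1 FPKM at 0 h in Micro-TOM-EX. The plant cysteine oxidase 4 gene LOC101246476, of a family that senses oxygen, fell at 2 h to 25.1 FPKM against 72.7 FPKM at 0 h in Micro-TOM-EX and to 29.9 FPKM against 73.3 FPKM (79.6 without replicate 2) in Micro-TOM. Glb1 in Micro-TOM-EX was lower at 2 h and at 8 h than at 0 h, and these list members moved in both directions. Whether low oxygen played a part was not tested.

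The ascorbate and alternative oxidase list, also matched by words, holds enzymes that keep the hemoglobin reduced, such as monodehydroascorbate reductase, and oxidases of the mitochondrial electron chain. It holds ascorbate peroxidases too, which are of neither kind. Of its 12 tested genes 5 rose and 4 fell at 2 h, and 6 rose and 3 fell at 8 h in Micro-TOM-EX, with 5 up and 3 down at 2 h and again at 8 h in Micro-TOM (6 up at 8 h without replicate 2). The members that passed were 75% at both hours in Micro-TOM-EX, against 75.9 and 71.3% of all genes at 2 h and 8 h, and 66.7% at both in Micro-TOM, against 74.9 and 70.6%. The monodehydroascorbate reductase AFRR rose at 2 h to 155 FPKM against 61 FPKM at 0 h in Micro-TOM-EX and to 218 FPKM against 58.5 FPKM (58 without replicate 2) in Micro-TOM. The alternative oxidase 1b gene LOC543825 rose at 2 h to 550.2 FPKM against 1.44 FPKM at 0 h in Micro-TOM-EX and to 513 FPKM against 0.167 FPKM (0.22 without replicate 2) in Micro-TOM. Its 0 h libraries of Micro-TOM-EX had 0.57, 3.39 and 0.37 FPKM, with a mean of 0.47 FPKM without replicate 2. Alternative oxidase 1a, LOC543824, rose at 2 h to 820.2 FPKM against 71.4 FPKM in Micro-TOM-EX and to 532 FPKM against 92.3 FPKM (75.6 without replicate 2) in Micro-TOM. The dehydroascorbate reductase DHAR1 fell at 8 h in both materials, to 67.7 FPKM against 198 FPKM at 0 h in Micro-TOM-EX.

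Of 18 tested genes of heme synthesis and breakdown, 1 rose and 16 fell at 2 h in Micro-TOM-EX, and 1 rose and 15 fell in Micro-TOM. At 8 h 2 rose and 10 fell in Micro-TOM-EX, and 2 rose and 9 fell in Micro-TOM (1 and 7 without replicate 2). Of all genes 49.2% fell at 2 h in Micro-TOM-EX and 47.5% in Micro-TOM, and 35.8 and 33.6% fell at 8 h. Ferrochelatase-2, LOC101247019, which inserts iron to complete heme, fell at 2 h to 33.8 FPKM against 141 FPKM at 0 h in Micro-TOM-EX and to 43.4 FPKM against 150.4 FPKM (166 without replicate 2) in Micro-TOM. Glutamyl-tRNA reductase LOC101266935, the entry step of the pathway, fell at 2 h to 88.1 FPKM against 214 FPKM in Micro-TOM-EX, and delta-aminolevulinic acid dehydratase LOC101246744 and porphobilinogen deaminase LOC101257684 also fell at 2 h in both materials.

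Between the materials, 1 of all 78 tested genes of these lists passed at 0 h, 10 at 2 h and 1 at 8 h, which is 1.28, 12.8 and 1.28%, against 4.01, 13.7 and 1.67% of all genes. Of the 10 genes at 2 h, 5 were higher and 5 lower in Micro-TOM-EX. They include a probable cinnamyl alcohol dehydrogenase and a folylpolyglutamate synthase, which the lists hold by name alone. The pyruvate decarboxylase LOC101247173, an enzyme of fermentation, had 49 ± 7.49 FPKM in Micro-TOM-EX and 20.9 ± 6.49 FPKM in Micro-TOM at 2 h (SD, n = 3 each, limma adjusted p = 0.0040). The 0 h gene was the NLP9-like protein LOC101246738, of a family of nitrate-responsive transcription factors, with 2.07 FPKM in Micro-TOM-EX and 1.2 FPKM (1.02 without replicate 2) in Micro-TOM. Its call (limma adjusted p = 0.046) was lost in 20 of 26 alternatives (adjusted p between 0.016 and 0.29). The 8 h gene was the cytosolic ascorbate peroxidase LOC101258987, with 7.19 FPKM in Micro-TOM-EX and 13.8 FPKM in Micro-TOM. Its call (limma adjusted p = 0.047) was lost in 16 of 26 alternatives (adjusted p between 0.0062 and 0.18). These 3 genes were named after their values were seen. With the replicate numbers as a block in limma, 0 genes of these lists passed at 0 h, with 11 at an unadjusted p under 0.05.

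On chromosome 7, Glb1 is gene 276 of 1736 in order of start. Of the 10 nearest genes, 5 on each side, 8 reached the filter of 1 FPKM in 3 libraries and were tested. LOC101248405 reached that filter through Micro-TOM at 0 h alone, the group where it is high, so it had to differ and is described without a test. Of the other 7, 2 passed between the materials at 0 h, 4 at 2 h and 1 at 8 h, which is 28.6, 57.1 and 14.3% against the 4.01, 13.7 and 1.67% of all genes. The counts were the same without replicate 2, but at 0 h not the genes. There LOC101248987 no longer passed without it and LOC101248118 did. The nearest, LOC101248405, a crocetin glucosyltransferase-like gene from 2960786 to 2962418 and 3278 bases from Glb1, ran against it. It was listed at 0 in all 9 Micro-TOM-EX libraries, and in Micro-TOM it had 6.74, 3.84 and 5.3 FPKM at 0 h, 0.32, 0.36 and 0.14 FPKM at 2 h, and 0.25, 0.32 and 0.42 FPKM at 8 h. Among the 0 h libraries of Micro-TOM the one labelled replicate 2 was the lowest.

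The nearest gene on the other side, LOC101248690, lies 8065 bases from Glb1 and is named for EIN3-binding F-box protein 1, a family that removes transcription factors of ethylene signalling. At 2 h it had 34.75, 32.71 and 34.99 FPKM in Micro-TOM-EX, against 76.78, 118.74 and 83.1 FPKM in Micro-TOM. At 8 h it had 45.05, 51.92 and 86 FPKM in Micro-TOM-EX, against 111.87, 189 and 162.48 FPKM in Micro-TOM. The groups did not overlap, and the log2 difference was -1.39 at 2 h (SE 0.22, limma adjusted p = 0.00057) and -1.35 at 8 h (SE 0.22, adjusted p = 0.0024). At 0 h the difference was 0.46 and did not pass (adjusted p = 0.36). The 8 h call was lost when the 2 groups were fitted alone (adjusted p = 0.13, with 0.00035 to 0.13 over the alternatives).

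LOC101249279, an uncharacterized gene 62453 bases away, was higher in Micro-TOM-EX, as Glb1 was. At 0 h it had 25.47, 35.43 and 30.42 FPKM in Micro-TOM-EX, against 10.74, 18.55 and 11.66 FPKM in Micro-TOM. At 2 h it had 17.9, 20.57 and 18.1 FPKM in Micro-TOM-EX, against 7.6, 10.28 and 7.34 FPKM in Micro-TOM. The log2 differences were 1.13 at 0 h (SE 0.20, limma adjusted p = 0.0039) and 1.09 at 2 h (adjusted p = 0.0021), and at 8 h the difference was 0.69 and did not pass (adjusted p = 0.13). Its highest Micro-TOM value came from the library labelled 0 h replicate 2, as for Glb1, and without that library the 0 h difference was 1.35. The 0 h call was lost when the 2 groups were fitted alone (adjusted p = 0.10, with 0.00065 to 0.10 over the alternatives).

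Of the other neighbours, LOC101248118, an uncharacterized gene, had 1.44, 3.25 and 2.2 FPKM in Micro-TOM-EX at 2 h, against 4.6, 7.26 and 5.69 FPKM in Micro-TOM (log2 difference -1.07, limma adjusted p = 0.0085). Its 0 h difference was 0.65 and did not pass (adjusted p = 0.20), but passed at 0.95 without the library labelled Micro-TOM 0 h replicate 2 (adjusted p = 0.025, with 0.025 to 0.55 over the alternatives). LOC101248987 passed at 0 h with a log2 difference of 0.49 (limma adjusted p = 0.028), and did not with a replicate block within the hour (adjusted p = 0.085). Leaving out replicate 2 or 3 of either material at 0 h, 1 at a time, also ended this call (adjusted p between 0.0090 and 0.17 over the alternatives). LOC101249561 passed at 2 h with a log2 difference of 0.78 (limma adjusted p = 0.039), and did not without replicate 1 or 3 of Micro-TOM-EX or of Micro-TOM at 2 h (0.018 to 0.20 over the alternatives). LOC101247836, named for the nuclear pore protein NUP1, and LOC101260656, named for an equilibrative nucleotide transporter, passed at no hour. BGI_novel_G000380, a gene model new to the annotation, reached 1.69 FPKM at most and LOC101261246 0.25 FPKM, and neither was tested.

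The wider surroundings of Glb1 held more genes that differed between the materials than the genome as a whole. Among the 50 genes on each side, from 2314997 to 3765596, 85 were tested without Glb1, and 26 passed at 0 h (LOC101248405 among them), 29 at 2 h and 19 at 8 h. These are 30.6, 34.1 and 22.4%, against 3.59, 14.3 and 2.65% of the 1282 tested genes of chromosome 7 outside that stretch. The 25 genes on each side gave 25, 32.5 and 25% of 40 tested genes. Of the 26 genes at 0 h, 18 were higher and 8 lower in Micro-TOM-EX. Genes side by side can share their differences, so these shares are descriptions without a test. They count LOC101254912, which reached the filter through Micro-TOM libraries alone. The 0 h count was 28 of 84 tested genes without Micro-TOM 0 h replicate 2, and 5 genes when the 2 groups were fitted alone. It was 16 without Micro-TOM-EX replicate 3 and 14 without Micro-TOM replicate 3 of 0 h. The shares of all genes that passed in these other fits are not given here. Whether the excess near Glb1 or the whole list of calls changed can therefore not be read from these counts.

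Across the genome, 70 of 18402 genes, 0.380%, passed in the same direction at 0, 2 and 8 h. In the 50 genes on each side of Glb1 there were 6 of 85, 7.06%, and on chromosome 7 17 of 1368. The 6 genes were looked up after their values were seen, and all 6 passed at each hour without replicate 2 as well. LOC101254912 stayed at or below 0.65 FPKM in every Micro-TOM-EX library. It reached the filter through Micro-TOM alone, the material where it is high, so its calls are a description without a test. LOC101254912, named for the transporter NRT1/PTR FAMILY 8.1 and 472421 bases from Glb1, had means of 0.423, 0.333 and 0.477 FPKM in Micro-TOM-EX at 0, 2 and 8 h, against 9.82 (11.2 without replicate 2), 2.54 and 6.16 FPKM in Micro-TOM. The other 5 were higher in Micro-TOM-EX. The calmodulin-like protein gene LOC101267131 had means of 56.6, 24 and 12.1 FPKM in Micro-TOM-EX at 0, 2 and 8 h, against 31.9 (25.4 without replicate 2), 13.4 and 3.49 FPKM in Micro-TOM. It is 317963 bases away and had its lowest mean at 8 h in both materials, an order that for Glb1 can be read in Micro-TOM-EX alone. The rest were the synaptotagmin-5-like LOC101262022, the uncharacterized LOC101265654, the new gene model BGI_novel_G000381 and LOC101258670, named FAR1-RELATED SEQUENCE 9.

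**Figure D3:**
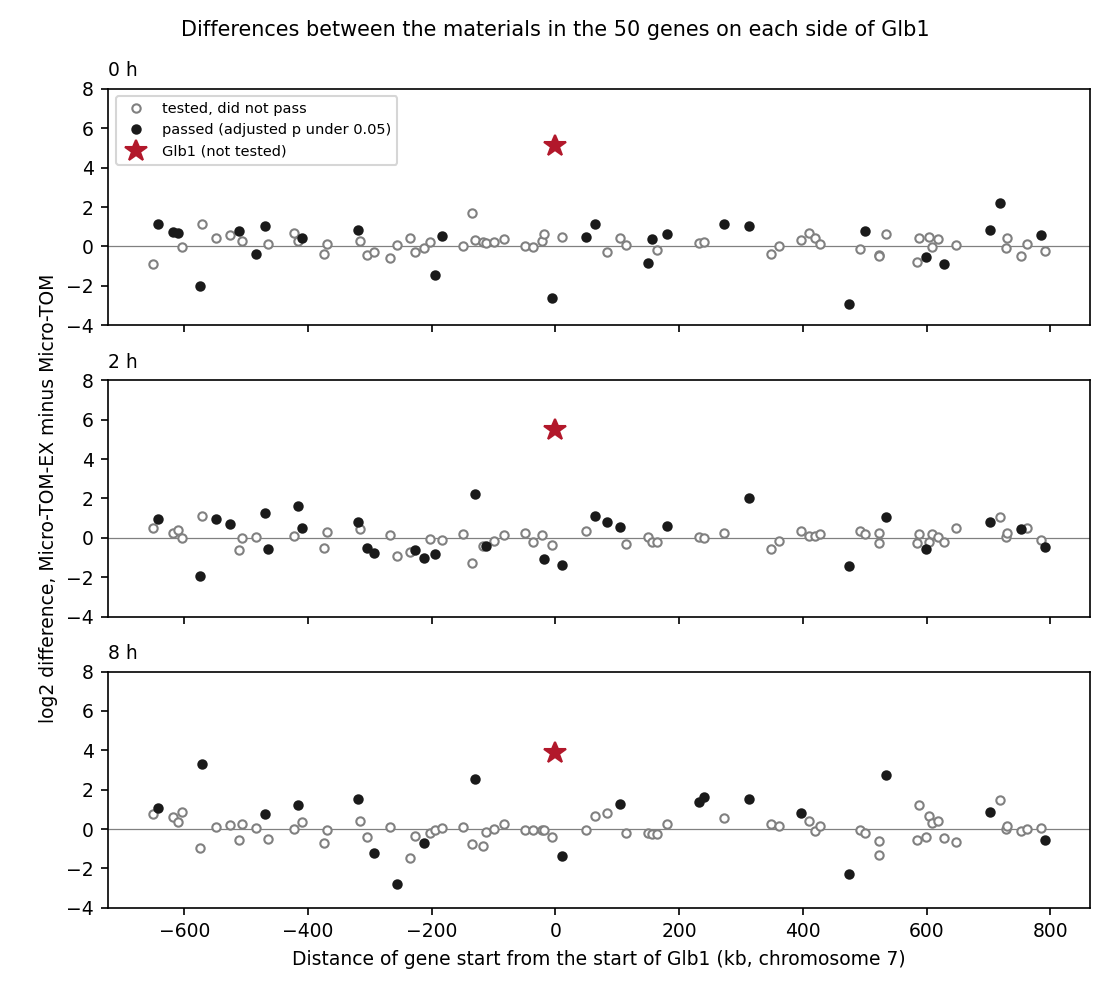
Difference between the materials, Micro-TOM-EX minus Micro-TOM on the log2(FPKM + 1) scale, for tested genes among the 50 on each side of Glb1, against distance along chromosome 7 in kb, at 0, 2 and 8 h. Filled points passed the test (26, 29 and 19 genes) and open points did not; the star marks Glb1, at 5.12, 5.46 and 3.88, above all the other genes shown at every hour.

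The 10 genes whose pattern was most like Glb1, by Pearson's r of log2(FPKM + 1) over the 18 libraries among 18401 other tested genes, had r between 0.90 and 0.97. The libraries share material, hour and depth, so r is a description and carries no p. None of the 10 lies on chromosome 7, which holds 1368 of the 18402 tested genes, so few would be looked for there. Gene models new to the annotation are 4 of the 10, against 761 of all 23808 genes. Chromosome 12 holds 4 of the 10, and its share of all genes is not given here, so no excess can be read. In all 10, the 9 Micro-TOM-EX libraries were above 8 Micro-TOM libraries, and the library labelled Micro-TOM 0 h replicate 2 was above those 8 and below the Micro-TOM-EX libraries of 0 h. Picking genes for their likeness to Glb1 over these same libraries favours this order, so it is a description and no separate evidence. The same 10 were picked when that library was left out.

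The closest was BGI_novel_G000344 on chromosome 6 (r = 0.97), with 4.4 to 5.14 FPKM in Micro-TOM-EX at 0 h, against 1.68 FPKM in the library labelled Micro-TOM 0 h replicate 2 and 0 to 0.1 FPKM in the other 8 of Micro-TOM. LOC101252258 on chromosome 12, named for ABC transporter C family member 8 (r = 0.96), averaged 14.9, 8.18 and 4.6 FPKM in Micro-TOM-EX at 0, 2 and 8 h, against 4.18 (2.62 without replicate 2), 1.17 and 1.4 FPKM in Micro-TOM. In the 9 Micro-TOM-EX libraries alone its r with Glb1 was also 0.97. LOC101260978 on chromosome 2 (r = 0.95) had 4.86 to 12.75 FPKM in Micro-TOM-EX, 4.12 FPKM in the library labelled Micro-TOM 0 h replicate 2, and was listed at 0 in the other 8 of Micro-TOM.

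The remaining genes were BGI_novel_G000280 (r = 0.93) and BGI_novel_G000277 (r = 0.92) on chromosome 5, LOC101258834 (r = 0.92), LOC101250194 (r = 0.91) and LOC101249900 (r = 0.91) on chromosome 12, LOC101260126 (r = 0.92) on chromosome 4 and BGI_novel_G000598 (r = 0.90) on chromosome 10. LOC101260126 is named for ADP-ribosylation factor 2 and LOC101249900 for a hemK methyltransferase. Not all of them followed Glb1 within a material, and in the 9 Micro-TOM-EX libraries r was 0.01 for LOC101258834 and -0.14 for LOC101250194. The 10 genes of highest r within Micro-TOM-EX alone shared 0 genes with this list. Without the library labelled Micro-TOM 0 h replicate 2 all 10 were kept. Among the neighbours of Glb1, r was 0.85 for LOC101249279 and -0.57 for LOC101248690, and it was -0.01 for Glb2. In the 9 Micro-TOM-EX libraries alone r was 0.39, -0.56 and -0.33 for these genes. There it was 0.91 for LOC101248118 and 0.86 for LOC101260656, against 0.31 and 0.48 over the 18 libraries, and -0.80 for LOC101249561.

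**Figure D4:**
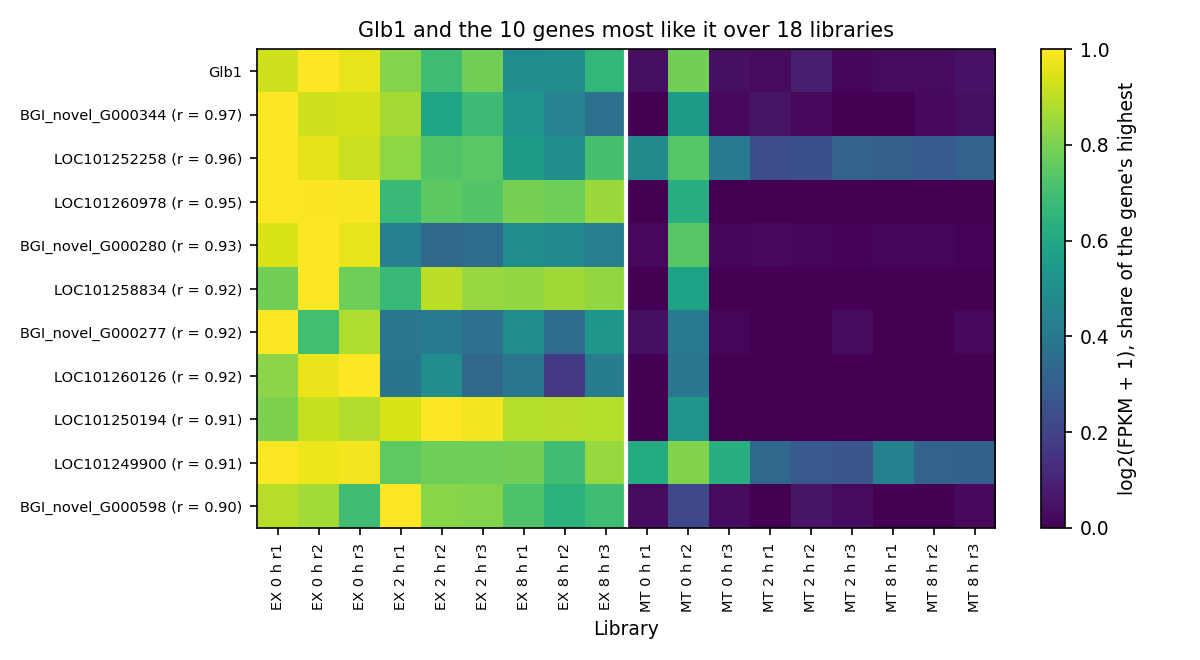
Glb1 and the 10 genes most like it (rows, with Pearson's r) in the 18 libraries (columns, EX left of the white line and MT right of it), coloured by log2(FPKM + 1) as a share of the gene's highest library. The library labelled MT 0 h r2 is brighter than the other 8 MT libraries in every row, and the EX columns are brightest at 0 h for Glb1 and most of the 10 genes. The 10 genes were picked for their likeness to Glb1 over these libraries, which favours such rows.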

How the data were processed

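Leaf RNA libraries, made by standard BGI500 protocols from Trizol extracts per the labels' protocols, were deposited as 1 table of FPKM values rounded to 2 decimals by the authors. The tools named, with no role, in the submitters' processing notes are DESeq2 1.4.5, RSEM 1.2.12, Bowtie2 2.2.5 and HISAT2 2.0.4. The table also holds the authors' log2 ratios and their p-values and q-values per comparison, deposited without the test's name. Another 18 columns repeat the FPKM values and were not used. No counts were used. Of the gene IDs 21978 matched a RefSeq table of another assembly, from which only the chromosome's number was taken.

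The 18402 genes that reached 1 FPKM in 3 or more libraries were fitted in R 4.3.3 by limma 3.58.1, on log2(FPKM + 1), in 1 model over the 6 groups, a mean trend and Benjamini-Hochberg adjustment in each of 11 comparisons at 0.05. The script was tested on simulated data. Glb1 received no p. Depth was searched between 10 and 30 M fragments so that low values fell on whole fragments within 0.15, with 150 bases taken off the transcript length, and 95.4 to 97.3% did. Named genes are Glb1, its 10 neighbours, the 10 most like it, and of each list all members when 6 or fewer pass the filter, or else the 4 of highest mean. Other named genes are marked. The gene and the lists were chosen with earlier results of these data known. Same-numbered libraries correlated above 0.1 for all 3 numbers only between the materials at 0 h (0.48, 0.44 and 0.13). There the numbers may stand for pairs, which is read from the data, not from the labels. The main fit does not use this pairing, so its 0 h calls between the materials leave it out. A replicate block enters as an alternative only. Reads shared by near-identical genes, or by overlapping genes on opposite strands, cannot be told apart. Alternatives are a median-ratio scaling, a pseudocount of 0.1, no filter, a filter of 5 FPKM, a replicate block, the compared groups alone, every library left out in turn, both number 2 libraries of 0 h left out, the authors' q values and, for likeness, Spearman's rho and group means. A block within each hour, windows of 25 and 50 genes, and likeness without 1 library or in Micro-TOM-EX alone were added after the data were seen.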

Additional observations from a re-analysis of the deposited data

Results flagged for a closer look

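In LOC101248690, LOC101248118 and AFRR the change from 0 h differed between the materials by limma's test of the difference itself (Micro-TOM-EX minus Micro-TOM, log2(FPKM + 1), Benjamini-Hochberg adjusted over all genes). For LOC101248690 the difference was -1.85 at 2 h (adjusted p = 0.0020) and -1.81 at 8 h (adjusted p = 0.0085), with means at 0, 2 and 8 h of 33.3, 34.2 and 61 FPKM in Micro-TOM-EX and 23.9, 92.9 and 154 FPKM in Micro-TOM. For LOC101248118 it was -1.72 at 2 h (adjusted p = 0.0074), with a lower level at 2 h in Micro-TOM-EX than in Micro-TOM. For LOC101248405 the difference was 2.28 at 2 h and 2.22 at 8 h. It is given without a p, since the gene reached the filter through Micro-TOM at 0 h alone and was not tested without the library labelled Micro-TOM 0 h replicate 2. These sizes depend on the pseudocount, as the gene was listed at 0 in every Micro-TOM-EX library. For AFRR, the monodehydroascorbate reductase, it was -0.54 at 2 h (adjusted p = 0.037), with a rise in both materials that was smaller in Micro-TOM-EX. The AFRR call was lost in 14 of 26 alternatives, among them the replicate block within the hour (adjusted p = 0.072), median-ratio scaling (0.058) and the fit without Micro-TOM 0 h replicate 2 (0.05004), with adjusted p between 0.020 and 0.11 over the alternatives. Over all genes 6.49% passed this test at 2 h and 1.35% at 8 h. The 0 h libraries enter both hours, and groups of 3 libraries were not searched for single outlying values.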

How the results depend on the processing

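With each library left out in turn, the difference of Glb1 between the materials in the change from 0 h ranged from -1.54 to 1.29 at 2 h and from -3.12 to -0.29 at 8 h, and without both number 2 libraries of 0 h it was -1.41 and -2.98. The 0 h ratio of means ranged from 5.16 to 667 over the libraries left out. Scaling by median ratios gave -1.10 for 2 h minus 0 h in Micro-TOM-EX, and a pseudocount of 0.1 gave 7.41 at 2 h and 5.82 at 8 h for Micro-TOM-EX minus Micro-TOM. Of the neighbours, LOC101248405 included, 1 to 3 passed at 0 h with a library left out, 1 with the compared groups alone and 1 without both number 2 libraries. At 8 h 2 passed with a pseudocount of 0.1, 0 with the compared groups alone, 2 without both number 2 libraries, and 3 by the authors' q values. Within 50 genes of Glb1, 14 to 28 passed at 0 h with a library left out and 5 with the compared groups alone, and 31 at 8 h by the authors' q values. Of the pathway genes at 0 h, 3 passed with a pseudocount of 0.1, 0 with median ratios, no filter, the compared groups alone, either replicate block or the authors' q values, and 0 to 2 with a library left out. At 2 h 4 passed with the compared groups alone and 3 to 13 with a library left out. At 8 h 0 passed with a pseudocount of 0.1, no filter, a filter of 5 FPKM or the compared groups alone, and 0 to 1 with a library left out. Of the other hemoglobins, 1 passed for 8 h minus 0 h in Micro-TOM-EX without both number 2 libraries and by the authors' q values, and 1 to 2 with a library left out. Of the 10 genes most like Glb1, 4 were kept by Spearman's rho, 3 by group means and 0 in Micro-TOM-EX alone. The replicate block, which does not move a log2 difference, ended the calls of LOC101249561 at 2 h and LOC101246738 at 0 h, and within the hour also those of LOC101248987 at 0 h and of AFRR for the difference in the 2 h change. Among the neighbours and the list genes named here, it ended no other call in the 11 comparisons, and it added the 2 h difference in change of LOC101247173, 8 h minus 0 h of LOC101249279 in Micro-TOM-EX and, within the hour, 2 h minus 0 h of LOC101260656 in Micro-TOM. The 2 h falls of NR and LOC101246028 in both materials, and that of GS2 in Micro-TOM, did not pass after scaling by median ratios. At an unadjusted p under 0.05 the alternatives in limma gave 6 to 14 pathway genes at 0 h and 5 to 13 at 8 h, and 3 to 4 neighbours at 8 h. The share of all genes that passed under each alternative is not given here, so these counts cannot be set against it. Causes were not tested. The depth limits Micro-TOM values of Glb1 to a few fragments.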
